A study of Mus musculus with 12 samples.

Results

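Gene deserts, long stretches of autosome far from any protein-coding gene, held 4519 H4K20me3 domains of 1000 bases to under 10 kb outside annotated genes. These were 16.02% of the 28210 domains of any width and place listed for mouse embryonic stem cells. A domain was taken as a desert domain when it lay on chromosomes 1 to 19, started at or after 8 Mb, was at least 1000 bases and under 10 kb wide, overlapped no annotated RefSeq gene and had no protein-coding gene body within 250 kb on either side. The domains were thus selected on their own measured positions and widths and on gene annotation, so values that follow from these conditions are given as descriptions. All coordinates are on mm10 and count from 1. Of the 28210 domains, 25734 lay on these autosomes, 24182 of them started at or after 8 Mb, 20695 of those had the stated width, 14098 of those overlapped no gene, and 4519 passed the last condition. The 16176 autosomal domains of the same widths and starts that failed a gene condition are the other domains below.

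The study measured H4K20me3 by ChIP-seq in embryonic stem cells of the line dTKO, with the genotype Suv39h1fl/fl; Suv39h2-/-; Setdb1fl/fl, collected at 0, 12, 24 and 48 h under auxin and dTAG13, with 3 replicates at each time and 12 libraries in all. Auxin and dTAG13 are small molecules that trigger degradation of proteins carrying a matching degron tag, and all 4 groups share the line and the genotype. The labels name only 1 line, so no other clone stands beside it. The series asks how H4K20me3 decays after loss of the H3K9 methyltransferases. The values used here are 1 domain list of chromosome, start and end, with no signal, score, time or sample. No replicate error or test over samples exists for any value below, the depth behind the list is unknown, and all comparisons are descriptions of that list.

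H4K20me3 is set by SUV420H enzymes, which are brought to chromatin that carries H3K9 methylation through HP1 proteins. The mark is best known from pericentromeric and telomeric heterochromatin and from silenced endogenous retroviruses. Gene deserts are late replicating, rich in long interspersed elements and often flanked by genes of development or of neuronal adhesion, whose distant enhancers they may contain.

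Sequences could be read for annotated promoters and microRNAs of RefSeq (GRCm38.p6) and not for the domains themselves. Of 795 promoter windows of noncoding genes in the deserts, each from 250 bases before to 50 after a start, 26 lay within 5 kb of a desert domain. The 2 of these 795 windows nearest to a desert domain are given below, to show annotated promoter sequence beside these domains. Desert domains overlap no annotated gene, so none can reach the start in a window, and counts of windows near them follow in part from the selection. The window of Gm31401, a long noncoding RNA gene between Slc10a2 and Efnb2 (chr8:8082290-8082589, plus strand), was the only one of the 795 that a desert domain entered. The domain, at 8081401 to 8082450, covered its first 161 bases, which are in capitals. Widths of desert domains come in steps of 150 bases, so the edge of a domain is not known to the base. The window of Gm39231, another long noncoding RNA gene, between Got2 and Cdh8 (chr8:97839871-97840170, plus strand), lay 120 bases from the end of a domain of 4500 bases and has no base in capitals.
Gm31401: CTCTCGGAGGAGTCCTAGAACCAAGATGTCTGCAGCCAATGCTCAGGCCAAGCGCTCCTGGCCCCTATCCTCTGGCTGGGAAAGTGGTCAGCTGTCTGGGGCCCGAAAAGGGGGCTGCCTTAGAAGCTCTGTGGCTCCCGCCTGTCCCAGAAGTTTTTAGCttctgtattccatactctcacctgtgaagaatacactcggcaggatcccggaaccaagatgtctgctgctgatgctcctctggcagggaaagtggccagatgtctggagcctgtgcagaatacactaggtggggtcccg
Gm39231: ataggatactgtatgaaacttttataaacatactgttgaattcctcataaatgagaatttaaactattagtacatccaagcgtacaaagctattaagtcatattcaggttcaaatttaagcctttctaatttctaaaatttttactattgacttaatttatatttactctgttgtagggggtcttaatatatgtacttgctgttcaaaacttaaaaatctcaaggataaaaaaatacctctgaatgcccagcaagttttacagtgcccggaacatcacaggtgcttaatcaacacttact
The first window was 57.0% G or C with 7 CpG, the second 30.3% with 2 CpG. The Gm31401 window repeated the 16 bases GAACCAAGATGTCTGC at positions 18 and 212, counted from its 5′ end, with 1 copy inside the domain and the other outside it. A direct repeat of 16 bases or more occurred in 749 of 31396 autosomal promoter windows, or 2.39%. Windows in deserts had a median of 43.0% G or C within 5 kb of a desert domain and 44.0% farther away, against 53.3% in the other 30601 autosomal windows. The other windows include those of protein-coding genes, so the 2 sets differ in gene type as well as in place.

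Of 44 microRNA genes in the deserts, 38 had a sequence, and 2 of their 54 mature microRNAs lay within 5 kb of a desert domain. They are shown with the seed, bases 2 to 8, in capitals.
mmu-let-7j: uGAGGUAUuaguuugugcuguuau
mmu-miR-3961: uGCCCUCAgcucaguugga
The seeds differ. The Mir7j hairpin lay 1.15 kb from a domain of 7200 bases between Stpg2 and Pdha2 on chromosome 3, at 140019901 to 140027100. Mir3961 lay 3.42 kb from a domain between Cetn3 and Mef2c on chromosome 13, at 82691551 to 82694850.

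The desert domains were spread over 449 of 553 deserts. Domains counted per desert here and below are desert domains unless stated otherwise, and a desert without one can hold domains that failed a condition. A desert is here a gap between neighbouring protein-coding gene bodies that leaves some sequence at least 250 kb from both, outside all other annotated genes and past 8 Mb. This eligible sequence came to 335.3 Mb, or 14.5% of the autosomes past 8 Mb, with assembly gaps counted in. It held 21.8% of the autosomal domains of the same widths and starts. Deserts with a domain had a median of 454.8 kb of eligible sequence, against 50.4 kb in the 104 without. Every one of the 210 deserts with at least 500 kb held a domain. The longest without one, between Tom1l1, an endosomal adaptor gene, and Kif2b, a kinesin gene, on chromosome 11, had 387.0 kb. It was named after its value was seen. In all, 65 deserts held a single domain and 147 held 10 or more, and those 147 accounted for 3401 of the 4519 domains (75.3%). A high share follows from choosing deserts by their count, and their share of the eligible sequence is not given here.

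The fullest desert lay on chromosome 1 between Dsel, a homologue of dermatan sulfate epimerase, and Cntnap5a, of the contactin-associated branch of the neurexin superfamily (111865053 to 115684736). It held 67 desert domains in 3256 kb of eligible sequence, or 20.6 per Mb. The next, on the same chromosome, lay between Cntnap5b and Cdh20, a type II cadherin gene (100490600 to 104768339), with 63 domains and 20.7 per Mb. On chromosome 14, the gap between the protocadherin genes Pcdh20 and Pcdh9 (88471397 to 93013699) was the widest that held a desert domain, at 4542 kb, and had 61 domains, 15.97 per Mb. These 3 therefore differed less in number than in spacing, and all are flanked by a gene of cell adhesion.

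Snx16, a sorting nexin gene, and Ralyl, which encodes an RNA-binding protein, enclosed 61 domains on chromosome 3 in a shorter gap of 3032 kb, or 24.6 per Mb. It was the densest of the 10 fullest deserts, with 9.03% of its eligible sequence in desert domains. The desert between Slc39a10, a zinc transporter gene, and Tmeff2 on chromosome 1 held 60 domains. Pcdh7 and G6pd2, an autosomal copy of the glucose-6-phosphate dehydrogenase gene, enclosed 59 on chromosome 5. The desert from Lrrc4c, the gene of a netrin-G ligand at synapses, to Iftap on chromosome 2 held 57. The one from D3Ertd751e to Pcdh10 on chromosome 3 held 56, and that from Cox7c, a subunit gene of cytochrome c oxidase, to Edil3, an extracellular matrix gene, on chromosome 13 held 49. Igfbp7 and Adgrl3, a latrophilin gene, enclosed 48 on chromosome 5. Together these 10 deserts held 12.9% of the desert domains in 9.17% of the eligible sequence.

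**Figure D1:**
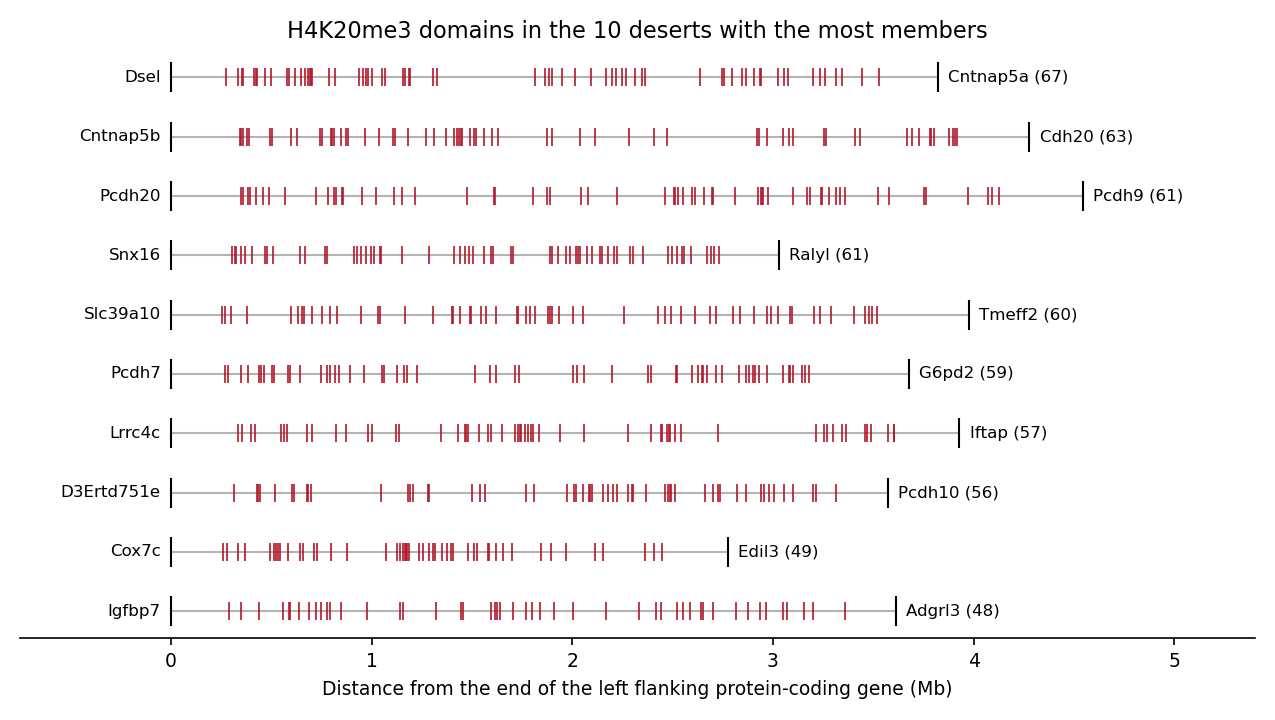
Positions of desert domains (red ticks, at domain centres, not drawn to width) in the 10 deserts with the most of them, from the end of the left flanking protein-coding gene (black bar) to the start of the right one, in Mb, with the number of domains in brackets. Desert domains run through the whole length of each desert, with gaps of up to 488.3 kb in the desert between Dsel and Cntnap5a. The empty 250 kb beside each gene follows from the way the domains were chosen.

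Long stretches without a desert domain occurred even in the fullest deserts. Such a stretch can hold noncoding genes, over which no desert domain can lie, and domains that failed a condition. At least 250 kb from both flanking genes, the desert between Cntnap5b and Cdh20 held 90 domains in all, of which 63 were desert domains. The widest gap between neighbouring desert domains was 488.3 kb between Dsel and Cntnap5a, 487.1 kb between Lrrc4c and Iftap and 443.1 kb between Cntnap5b and Cdh20, against 164.1 kb between Igfbp7 and Adgrl3. The median gap in these 4 deserts was 26.8, 25.4, 27.8 and 52.5 kb, in the same order. The desert with the smallest of these widest gaps thus had the largest median gap.

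Of the 5 deserts with the most eligible sequence, 4 were also among the 10 fullest. The exception was the longest, between Olfm4, an olfactomedin gene, and Pcdh17 on chromosome 14 (80023142 to 84443562), with 3843 kb and 43 domains, or 11.2 per Mb. Over all 553 deserts, the number of domains rose with the eligible length, with a Spearman rho of 0.893, and over the 440 with at least 100 kb rho was 0.862. Both are given as descriptions, since a longer desert offers more room. Domains per Mb followed length less closely, with rho of 0.204 over the 210 deserts of at least 500 kb. By eligible length, deserts under 100 kb held 11.3 domains per Mb, those of 100 to 250 kb 10.5, those of 250 to 500 kb 12.7, those of 500 to 1000 kb 13.4, those of 1000 to 2000 kb 13.4 and those over 2000 kb 14.6.

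**Figure D2:**
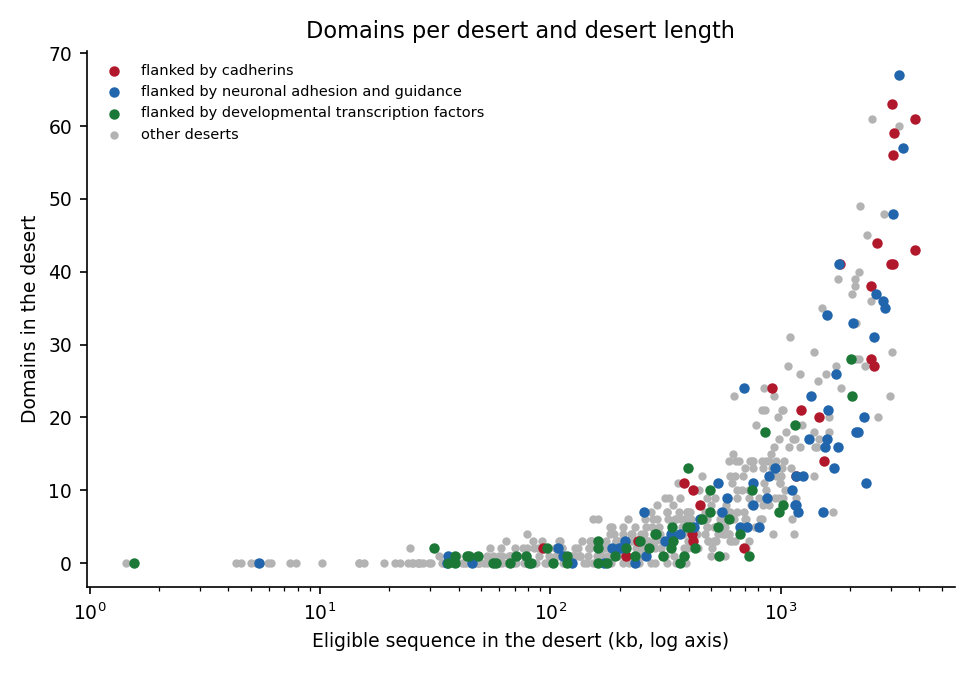
Number of desert domains (vertical axis) against eligible sequence in kb (horizontal log axis), 1 point per desert, for the 551 deserts with at least 1 kb. Colours mark deserts with a flanking gene of 3 gene lists, where a desert on several lists takes the first colour in the legend, and the 67 domains of the fullest desert are the highest point.

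Among the 210 long deserts, domains per Mb had quartiles of 9.08 and 17.1 and a median of 12.8. The densest lay on chromosome 13 between Chrm3, a muscarinic acetylcholine receptor gene, and Ryr2, the gene of the cardiac calcium release channel (10361063 to 11553098). It held 23 domains in 626.9 kb, or 36.7 per Mb, and 14.02% of its eligible sequence lay in desert domains. Cntnap5a and B020011L13Rik on chromosome 1 enclosed 24 domains at 34.7 per Mb, and Reg3g, which encodes an antimicrobial lectin, and Gm20594 on chromosome 6 enclosed 24 at 28.5 per Mb.

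At the other end, named after their values were seen, 3 long deserts held a single desert domain. With domains of any width or over noncoding genes counted in, they held 3, 2 and 1, in the order below. They lay between Sall3, a zinc finger transcription factor gene, and Galr1, a galanin receptor gene, on chromosome 18 (726.9 kb eligible, 1.38 per Mb), between Jag1, a Notch ligand gene, and Btbd3 on chromosome 2 (574.2 kb, 1.74 per Mb), and between Gm11677 and Sox9, the transcription factor gene of cartilage and testis, on chromosome 11 (538.3 kb, 1.86 per Mb). Tle4, a Groucho-type corepressor gene, and Psat1 on chromosome 19 enclosed 2 domains at 2.84 per Mb, and Cdh11 and Cdh5, which encodes vascular endothelial cadherin, on chromosome 8 enclosed 2 at 2.89 per Mb.

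Deserts were also summed over 5 tracts around genes of cell adhesion, which were picked after the values were seen. On chromosome 1, from Cntnap5b to B020011L13Rik (100490600 to 117781134), 6 deserts held 63, 41, 3, 11, 67 and 24 desert domains, 209 in all or 22.2 per Mb, which was 4.62% of all desert domains, with 26 protein-coding genes between the tract's ends. On chromosome 5, Pcdh7 had 41 on its left, up to Stim2, and 59 on its right, the largest sum of any flanking gene. These 2 deserts together stood at 16.2 per Mb. On chromosome 14, from Olfm4 to Pcdh9, 4 deserts held 128, or 13.3 per Mb, against 13.5 per Mb over all deserts. On chromosome 3, from D3Ertd751e to Pcdh18, 3 deserts held 104, or 17.0 per Mb. On chromosome 15, the type II cadherin genes Cdh6, Cdh9, Cdh10, Cdh12 and Cdh18 follow one another. The 4 deserts between them held 41, 12, 24 and 8, or 85 together, at 15.3 per Mb. Of the 129 genes with a desert on each side, 100 had desert domains on both.

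The flanking genes were also counted by 7 gene lists, each given with its share of all 553 deserts, of which 81.2% held a domain. The lists were made from chosen families of gene symbols, so each covers only part of the class that its name gives. A desert can be on several lists. Cadherin and protocadherin genes flanked 26 deserts (4.70%), all 26 with a domain, and 19 of the 147 deserts with 10 or more (12.9%). These 26 deserts were long, with a median of 1506 kb of eligible sequence against 337.0 kb over all deserts. They held 677 domains, or 15.0% of the desert domains, in 13.3% of the eligible sequence. Their density was 15.2 per Mb, and 13.5 per Mb over all deserts. Over the 18 of them with at least 500 kb the median was 14.5 per Mb, against 12.8 over all 210 such deserts, and the range was 2.89 to 26.1 per Mb.

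Genes of neuronal adhesion and axon guidance flanked 62 deserts (11.2%), of which 56 held a domain, and 31 of the 147 fuller ones (21.1%). Their median length was 918.2 kb of eligible sequence, against 337.0 kb over all deserts. The 62 held 924 domains at 12.8 per Mb, which was 20.4% of the desert domains in 21.5% of the eligible sequence. Over the 42 of them with at least 500 kb the median was 12.2 per Mb, against 12.8 over all 210. After Cntnap5a, with 91 domains on its 2 sides, came Cntnap5b (74), Lrrc4c (65) and Adgrl3 (61). Long deserts beside teneurin genes, which encode large adhesion proteins of synapses, varied widely and are named after their values were seen. The one from Tenm3 to Aga held 37 at 14.2 per Mb, against 11 at 4.68 per Mb from Tenm2 to Mat2b and 7 at 5.87 per Mb from Gm15501 to Tenm4. These 3 contained the 3 widest gaps between neighbouring desert domains, of 943.5, 1076 and 1394 kb. Such gaps can hold noncoding genes, over which no desert domain can lie, and other domains. Eligible sequence came to 2606 of 3989 kb beside Tenm3, 2349 of 3442 kb beside Tenm2 and 1192 of 2987 kb beside Tenm4. At least 250 kb from both flanking genes, these deserts held 46, 15 and 25 domains of any kind, in the same order.

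The list of ion channel and transmitter receptor genes took in families such as Kcn, Gabr, Grm and Htr. Its genes flanked 32 deserts (5.79%), all with a domain, and 12 of the 147 fuller ones (8.16%). Their median length was 531.3 kb of eligible sequence, against 337.0 kb over all deserts. They held 351 domains at 15.4 per Mb, which was 7.77% of the desert domains in 6.79% of the eligible sequence. Over the 17 with at least 500 kb the median was 14.97 per Mb, against 12.8 over all 210, and the range of 1.38 to 36.7 per Mb was that of all 210. Grik2, a kainate receptor subunit gene, stood beside 49, Kcnd2, a voltage-gated potassium channel gene, beside 39, Kcnt2, a sodium-activated potassium channel gene, beside 36, and Kcnv1, a modulatory potassium channel subunit gene, beside 26. Channel and receptor genes outside the list are named after their values were seen. Nmbr stood beside 38 desert domains, Agtr1b beside 27 and Ryr2 beside 23, in 2095, 1073 and 626.9 kb of eligible sequence. Drd1, Hrh4 and Trpc7 stood beside 0, Adra2a beside 2 and Tacr3 beside 1. The eligible sequence there was mostly short, at 39.1, 163.3, 25.2, 395.7 and 66.8 kb, in the same order.

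The list of developmental transcription factor genes took in families such as Sox, Pou, Irx, Tbx, Fox and Pax. Its genes flanked 56 deserts, of which 42 held a domain. They flanked 14 of the 104 deserts without a domain (13.5%) and 7 of the 147 fuller ones (4.76%), against 10.1% of all deserts. These deserts were shorter, with a median of 256.6 kb of eligible sequence against 337.0 kb over all deserts, and deserts without a domain were short as a whole. Their 223 domains stood at 10.8 per Mb, which was 4.93% of the desert domains in 6.15% of the eligible sequence. Over the 12 such deserts of at least 500 kb the median was 9.72 per Mb, against 12.8 over all 210, and the range was 1.38 to 21.1 per Mb. Nr2f1, a nuclear receptor gene of the developing brain, stood beside 28 domains, Mef2c beside 20 and Pou3f2, a neural POU factor gene, beside 18. The lowest values among the 12 were those beside Sall3 and Sox9 given above and that between Sall1 and Tox3, at 5.99 per Mb, named after they were seen. The desert between Sall3 and Galr1 is also on the list of ion channel and transmitter receptor genes and has the lowest value there. Developmental transcription factor genes outside the list are named after their values were seen. Zeb2 stood beside 20 desert domains in 2651 kb of eligible sequence, or 7.54 per Mb. Gata3 stood beside 16 in 1441 kb, or 11.1 per Mb. Gata6, Runx1 and Prox1 stood beside 0, in shorter deserts of 47.6, 242.5 and 82.7 kb of eligible sequence.

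The other lists touched few deserts. Zinc finger genes named Zfp flanked 16 (2.89%), of which 10 held 42 domains in all, led by Zfp804a with 15, Zfp462 with 9, Zfp608 with 6 and Zfp703 with 4. Chemosensory receptor genes flanked 2 (0.362%), with 1 domain beside Tas2r119, a bitter taste receptor gene, and 0 beside Olfr1505, an olfactory receptor gene. Genes of clustered enzymes and secreted proteins flanked 4 (0.723%), with 41 domains beside Serpinb8, 9 beside Cyp7b1, 5 beside Defb41 and 2 beside Scgb2a2. Chemosensory genes were 7.31% of autosomal protein-coding genes and 2 of the 977 genes that flank a desert.

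Desert domains stood at 13.5 per Mb of eligible sequence, against 8.20 per Mb for the other domains in all other autosomal sequence past 8 Mb. Deserts had the higher value on 19 of 19 autosomes, with ratios of 1.33 on chromosomes 7 and 14 to 2.32 on chromosome 11. Gene bodies are part of that other sequence and no part of the deserts. Where only other sequence outside gene bodies was counted, the other domains stood at 11.5 per Mb, and deserts had the higher value on 17 of 19 autosomes, with ratios of 0.938 to 1.46 and a median of 1.16. The highest desert densities were 17.2 per Mb on chromosome 1 and 15.9 on chromosome 6, and the lowest were 9.57 on chromosome 19 and 10.1 on chromosome 18. Chromosome 1 had 584 desert domains and chromosome 19 had 49.

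**Figure D3:**
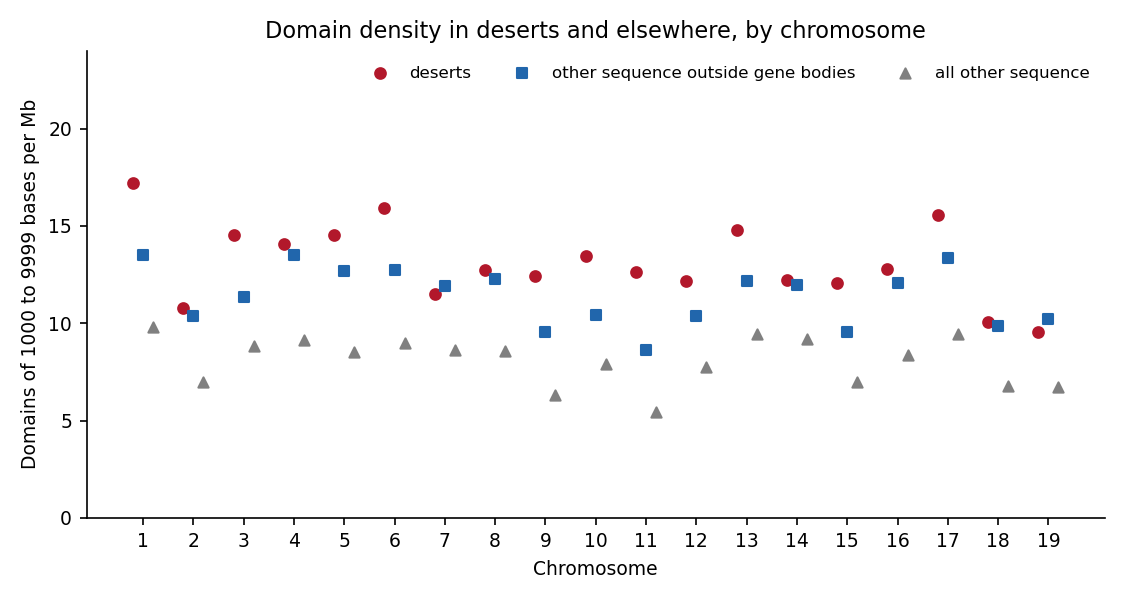
Domains per Mb, from 1000 bases to under 10 kb wide (vertical axis, from 0) on each autosome, in deserts (red circles), in other sequence outside gene bodies (blue squares) and in all other sequence (grey triangles). The red circle is above the grey triangle on all 19 autosomes and above the blue square on 17 of them, and it reaches 17.2 on chromosome 1.

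Distance to the nearest protein-coding gene made a small difference within the deserts. Desert domains lay a median of 539.6 kb from the nearest protein-coding gene body, with quartiles of 364.8 and 850.3 kb, and 850 of them (18.8%) lay beyond 1 Mb. Their density was 12.8 per Mb at 250 to 500 kb, 13.8 at 500 to 750 kb, 13.5 at 750 to 1000 kb, 14.6 at 1000 to 1500 kb and 15.6 beyond 1500 kb. Beyond 1 Mb the value was 14.9 per Mb. It was higher there than at 250 to 500 kb on 11 of the 16 autosomes with more than 1 Mb of such distant sequence. The other domains outside gene bodies stood at 9.48 per Mb within 10 kb of a protein-coding gene, 11.9 at 10 to 50 kb, 11.8 at 50 to 100 kb and 12.8 at 100 to 250 kb, so the density showed no step at the limit of 250 kb.

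**Figure D4:**
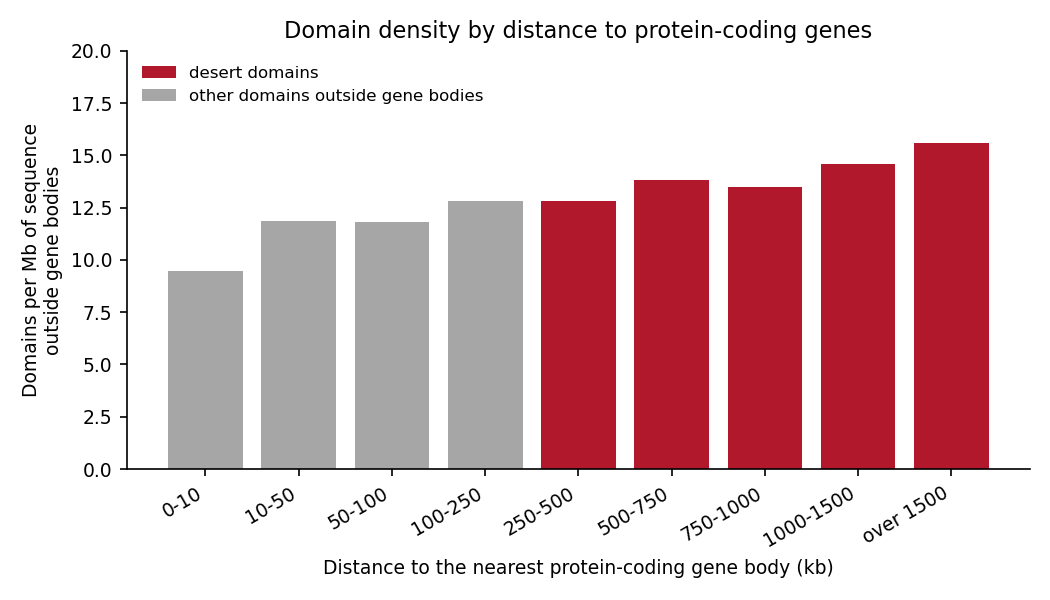
Domains per Mb of sequence outside gene bodies (vertical axis, from 0) by distance of the domain's nearer edge to the nearest protein-coding gene body in kb, for desert domains (red) and other domains outside gene bodies (grey). The bars on both sides of the 250 kb limit stand at 12.8 per Mb, the bar nearest to genes at 9.48 and the farthest at 15.6.

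The 5 domains farthest from any protein-coding gene all lay on chromosome 14. The first, at 90694051 to 90695550 between Pcdh20 and Pcdh9, was 2223 kb from the nearer gene. The other 4 lay in the desert between Olfm4 and Pcdh17, from 82175551 to 82307700, at 2136 to 2152 kb. Their widths were 8.70, 1.20, 3.60 and 2.40 kb, so they differed by several times among neighbours.

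Position within a desert made a small difference too. In 231 deserts with at least 500 kb from end to end after trimming by 250 kb at each gene, the fifth nearest the edges held 12.8 domains per Mb, followed by 14.6, 13.6, 13.7 and, in the middle, 14.3.

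Widths of desert domains and other domains were alike in their quartiles. Both had a median of 2.85 kb and quartiles of 1.95 and 4.20 kb, and the desert domains averaged 3.38 ± 1.96 kb (SD over 4519 domains). Desert domains of 1 to 2 kb made up 26.9%, against 28.3% of the other domains, and those of 7.5 to 10 kb 6.28%, against 7.05%. Width did not follow distance to genes, with a Spearman rho of -0.00520 over the 4519 desert domains. The median was 2.40 kb on chromosome 19 and 2.70 to 3.15 kb on the other autosomes. All 4519 widths were multiples of 150 bases, and the limits on width cut through a range without a break in these steps. Of domains that met all other conditions, 144 were 1050 bases wide and 160 were 900 bases wide, while 13 were 9900 bases and 14 were 10050 bases wide. Among the 13 of 9900 bases, 3 lay at 47870851 to 47880750 on chromosome 1 between Slc39a10 and Tmeff2, at 137271751 to 137281650 on chromosome 1 between Nr5a2 and Ptprc, and at 10956451 to 10966350 on chromosome 13 between Chrm3 and Ryr2.

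The limit on distance was equally without a break. The 5 domains just inside it lay 250.04 to 250.41 kb from a protein-coding gene and were 1500 to 5550 bases wide. The 5 just outside lay at 249.5 to 249.8 kb and were 1050 to 8100 bases wide.

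Narrower and wider domains shared the deserts. Under the same conditions on position and genes, 358 were narrower than 1000 bases and 246 were at least 10 kb wide, the widest 49.4 kb. Desert domains covered 4.56% of the eligible sequence and domains of any width 5.60%, while the other domains covered 2.80% of all other sequence and 3.95% of that outside gene bodies.

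Neighbouring desert domains within a desert were a median of 39.0 kb apart, end to start, over 4070 pairs. The quartiles were 15.9 and 85.2 kb. The smallest gap was 0.900 kb and the largest 1394 kb, in the desert between Gm15501 and Tenm4 on chromosome 7 (93995401 to 95388900). Gaps under 5 kb made up 7.20% and gaps over 200 kb 5.80%. Other features, including narrower and wider domains and noncoding genes, may stand in a gap.

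**Figure D5:**
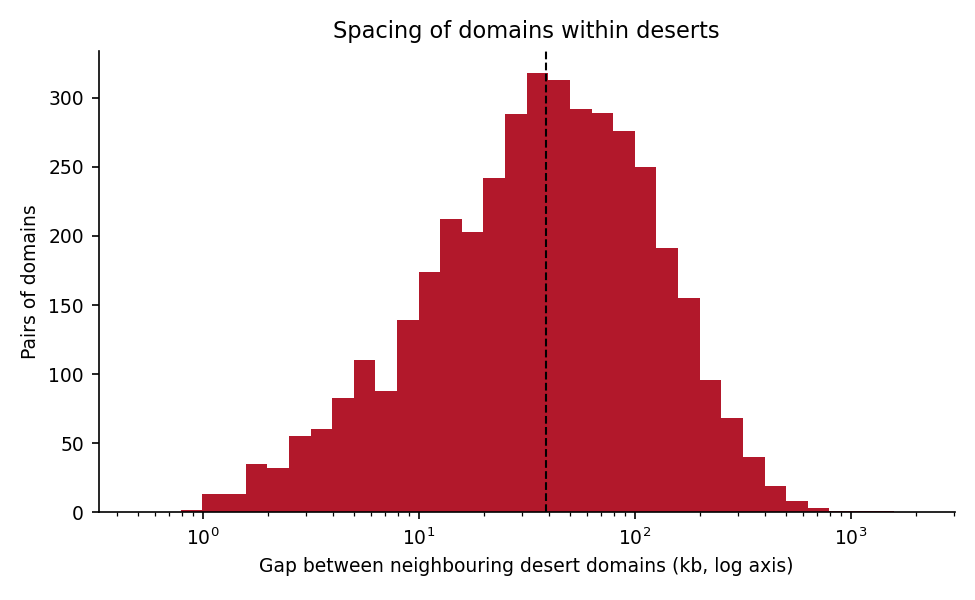
Gaps between neighbouring desert domains of the same desert in kb (horizontal log axis) and the number of the 4070 pairs in each bin (vertical axis), with the median of 39.0 kb as a dashed line. The gaps form a single broad peak around the median, with quartiles of 15.9 and 85.2 kb.

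Most desert domains had no other desert domain within 10 kb. With domains of any kind counted, 30.1% had a neighbour within 10 kb, against 30.6% of the other domains and 34.7% outside gene bodies. Where domains with gaps under 10 kb were joined into runs, 3356 of 4519 (74.3%) were single, 916 stood in pairs, 174 in runs of 3, 48 in runs of 4 and 25 in 5 runs of 5. The most compact run of 5, with 32.1 kb from first to last base, lay between Cox7c and Edil3 on chromosome 13 (87201901 to 87234000), and desert domains covered 55.6% of it. The others, in the order of their span, lay between Hace1, a ubiquitin ligase gene, and Grik2, between Chrm3 and Ryr2, between Cntnap5a and B020011L13Rik, and between Grm3, a metabotropic glutamate receptor gene, and Gm5861. The runs were named after their values were seen.

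In 3439 windows of 100 kb laid end to end through the deserts, the mean was 1.23 desert domains, with a variance of 1.45. Of the windows, 33.2% (1142) had no desert domain. The windows ran over noncoding genes too, where no desert domain can lie. The fullest window had 7 domains and lay between Grxcr1 and Kctd8 on chromosome 5 (68416399 to 68516398).

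The nearest domain of any kind was a median of 18.6 kb from a desert domain, against 20.9 kb from the other domains and 17.0 kb from the other domains outside gene bodies. Domains without a neighbour within 100 kb made up 4.78% of the desert domains, against 11.6% of the other domains and 8.71% of those outside gene bodies. Those with a neighbour within 5 kb made up 15.1%, against 16.6% and 18.9%. Desert domains thus had fewer very near and fewer very distant neighbours than either set. No test of these differences was made.

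The deserts contained 2110 annotated genes that are not protein-coding, among them 910 long noncoding RNA genes, 900 pseudogenes, 127 snoRNA, 114 snRNA and 44 microRNA genes. Desert domains lay a median of 71.5 kb from the nearest of these genes, 137.9 kb from the nearest pseudogene and 266.5 kb from the nearest long noncoding RNA gene. Within 5 kb of such a gene there were 164 desert domains at 9.22 per Mb, against 13.7 per Mb farther away, and the value within 5 kb was the lower one on 17 of 19 autosomes. The long noncoding RNA genes Gm31401 and Gm39231, whose promoter windows are shown above, are among the genes with a domain this near. Beside long noncoding RNA genes the density was 7.77 per Mb within 5 kb, 11.6 at 5 to 10 kb, 10.8 at 10 to 25 kb, 12.7 at 25 to 50 kb, 13.2 at 50 to 100 kb and 14.04 beyond. Beside pseudogenes it was 9.30 per Mb within 5 kb and 12.9 to 15.3 in the farther bins. Domains that overlapped such a gene were left out by the selection. The part that this, mappability and assembly gaps have in these densities was not tested.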

How the data were processed

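H4K20me3 was measured by ChIP-seq in 12 samples, and 1 domain list of 3 columns was used. The authors deposited it as positions only, called with RSEG per the file name; the sources used here give neither its threshold nor the libraries and times behind it. Per the submitters' processing notes, tools included bedtools, deepTools, SAMtools 1.1 and Bowtie2 2.3.4.1; their roles are not stated. The list holds no sample columns, so no time was compared and no test was run. The planned count test over time was not run for that reason.

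Genes came from a RefSeq table of GRCm38.p6, the assembly of mm10: 46714 autosomal genes, 20560 protein-coding, leaving out genes placed within 3 Mb of a chromosome start, since the mouse assembly has no sequence there. Distances run from domain edge to gene body. Densities divide domain counts by sequence that met the same conditions. Assembly gaps were not removed, and chromosome ends are the last annotated gene or domain end. Deserts and genes are named by a rule on the most domains, eligible length, density, distance and width, and up to 4 genes per list; exceptions are marked, and 1 gene that the rule names is not reported here. Domains and lists were chosen with earlier results of these data known. Selection was tested on simulated data and found every planted member in 20 of 20 simulations. The scripts ran in Python 3.11.15 with pandas 2.3.3, matplotlib 3.10.9, scipy 1.17.1 and numpy 2.4.6.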

Additional observations from a re-analysis of the deposited data

How the results depend on the processing

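The 6 results were recomputed under 21 alternatives, of which 13 stayed within 1.5 times a count or within the 95% binomial interval of a density, share or median, and 8 did not. The number of desert domains was 7259 with a limit of 100 kb to protein-coding genes and 2473 with 500 kb. Desert density was 14.1 per Mb with 500 kb and 12.0 per Mb with domains closer than 5 kb merged. The other domains stood at 11.5 per Mb in sequence outside gene bodies and at 8.37 per Mb with only the first 3 Mb left out. With domains closer than 5 kb merged, the nearest domain was a median of 22.7 kb away. The share of deserts with a domain was 81.2%, and 93.2% among those with at least 100 kb of eligible sequence. The density of other domains was not recomputed with merging. The intervals cover counting error alone. No paired analysis was possible because the list has no sample columns. Depth limits cannot be given, since the depth is unknown.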
